A study of Mus musculus with 16 samples.

Results

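The genes described here handle heme in hepatocytes, the main cells of the liver: the plasma scavengers Hp and Hpx, the breakdown enzymes Hmox1, Hmox2, Blvra and Blvrb, the synthesis enzymes Alas1 and Fech, and the heme transporters Slc48a1 and Flvcr1. They were chosen by name for this role, with earlier results of these data known, and are 10 of the 55416 genes measured. Their identifiers in the files were ENSMUSG00000031722 (Hp), ENSMUSG00000030895 (Hpx), ENSMUSG00000005413 (Hmox1), ENSMUSG00000004070 (Hmox2), ENSMUSG00000001999 (Blvra), ENSMUSG00000040466 (Blvrb), ENSMUSG00000032786 (Alas1), ENSMUSG00000024588 (Fech), ENSMUSG00000081534 (Slc48a1) and ENSMUSG00000066595 (Flvcr1). Transcripts were sequenced from cultured primary hepatocytes of mice in 4 groups of 4 samples. FLOX cells had no Cre recombinase (Alb-cre-), and HKO cells carried Cre under the albumin promoter (Alb-cre+), which is active in hepatocytes, in a cross made to delete Smpd3, the gene of a neutral sphingomyelinase. Both genotypes were cultured for 24 h with vehicle or with palmitic acid, a saturated fatty acid, at 0.4 mM. The labels give neither the strain nor the age of the mice, nor whether the 4 samples of a group were separate animals or cultures. The p-values therefore reflect sample-to-sample spread that could be technical. Sample titles use the same numbers in both treatments, and whether same-numbered samples shared a mouse is not stated. The study's design text names the role of Smpd3 in steatohepatitis as its question.

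Heme is the iron-holding ring of hemoglobin and of cytochromes, and it is toxic when free. The liver secretes haptoglobin, the product of Hp, which binds hemoglobin in plasma, and hemopexin, the product of Hpx, which binds heme itself. Both are acute phase proteins, whose synthesis rises in inflammation. Inside cells, heme oxygenases open the ring to biliverdin, iron and carbon monoxide, and biliverdin reductases turn biliverdin into bilirubin. Hepatocytes also make much heme for their cytochromes P450, and the first step of that pathway, catalysed by the product of Alas1, is the one that limits its rate.

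The promoters are shown first, since the scavengers and the biliverdin reductase Blvrb had the largest differences between genotypes among the 10 genes. RefSeq's table for GRCm38.p6 held promoters of 6 of the 10 genes, namely Hpx, Hmox2, Blvra, Blvrb, Alas1 and Flvcr1. The 250 bases before the start of Hpx lie at chr7:105600117-105600366 on the minus strand, and those before the first listed start of Blvrb at chr7:27447728-27447977 on the plus strand. Capitals mark matches to the motifs searched, and the Blvrb promoter was chosen for display after its values were seen.
Hpx: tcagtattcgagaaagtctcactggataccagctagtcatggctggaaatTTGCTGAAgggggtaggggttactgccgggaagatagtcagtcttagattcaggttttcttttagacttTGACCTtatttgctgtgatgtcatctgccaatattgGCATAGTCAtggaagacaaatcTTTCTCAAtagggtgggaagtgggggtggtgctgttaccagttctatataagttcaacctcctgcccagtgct
Blvrb: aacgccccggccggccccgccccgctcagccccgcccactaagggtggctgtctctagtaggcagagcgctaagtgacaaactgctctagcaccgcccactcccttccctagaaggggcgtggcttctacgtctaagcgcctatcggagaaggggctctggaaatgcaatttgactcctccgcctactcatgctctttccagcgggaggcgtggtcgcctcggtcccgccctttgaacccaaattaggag
The motifs were searched on both strands: the core of the antioxidant response element (TGACNNNGC), C/EBP (TTNNGNAA), STAT (TTCNNNGAA) and the E-box (CACGTG). Also searched were the core of the nuclear receptor element (AGGTCA), the CRE core (TGACG) and the heat shock element (GAANNTTC). Hpx held 4 matches, none overlapping another and all on the strand opposite to the gene. They were C/EBP at 200 and 73 bases before the start, the nuclear receptor core at 131 and the antioxidant core at 95. In Blvrb there were 0 matches before either of its listed starts. Blvra held an antioxidant core at 49 bases before its start. Flvcr1 held the antioxidant core at 151 and C/EBP at 105, and Alas1 held STAT at 171 and the CRE core at 186. Before listed start 2, Hmox2 held C/EBP at 122 and heat shock elements at 182 and 126. Before its listed start 3, these stood at 187, 247 and 191. The search covered windows of 300 bases, 250 before the start and 50 after it. Of all 32851 promoters of that length, 40.7% held the C/EBP motif, 16.3% the nuclear receptor core and 12.4% the antioxidant core. The CRE core was in 20.8%, STAT in 8.3%, the heat shock element in 7.86% and the E-box in 7.15%. A match describes letters in the sequence and is not a binding site.

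Levels are given as TPM, a length-corrected share of the transcripts in a sample, so that levels can be compared between genes. The files hold no read counts, so sequencing depth is unknown and the error of each level is the SD of the 4 samples. Differences are on the log2(TPM + 1) scale with their SE from limma, a linear model fitted to all 11858 genes that passed the filter on low values, and a gene counts as changed where its p-value adjusted over all of them was below 0.05. All 10 heme genes passed the filter. In order of their mean level over the 16 samples they were Hpx (3572 TPM), Hp (1703), Hmox1 (361), Blvrb (189), Alas1 (163), Slc48a1 (114), Fech (57.5), Hmox2 (54.1), Blvra (22.9) and Flvcr1 (2.62). The ranges of the 16 samples overlapped between Hmox2 and Fech, and among Blvrb, Alas1 and Slc48a1, so the order within those 2 sets is not fixed by their spread. The other neighbours in this order had ranges that did not overlap.

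The targeted gene, Smpd3, ran from 27.8 to 47.8 TPM in the 8 FLOX samples and from 4.25 to 9.15 TPM in the 8 HKO samples, so every library had the level its label names. All 10 hepatocyte markers were above 1 TPM in all 16 samples, summing to 45992 to 47987 TPM with vehicle and 37394 to 38994 TPM with palmitic acid over both genotypes. Of 12 macrophage markers, Cd68 alone reached 48.3 to 106 TPM, while the other 11 summed to 0.97 to 3.00 TPM and Timd4 was at 0 in all 16. The 8 neutrophil markers summed to 0 to 0.23 TPM, the 7 endothelial markers to 2.71 to 5.50 and the 8 stellate and fibroblast markers to 0.50 to 1.51. Of 9 erythroid markers, Alas2 stood at 19.3 to 23.2 TPM, and the other 8 summed to 1.29 to 3.60 TPM. The FLOX vehicle and FLOX palmitic acid libraries numbered 1 stood at opposite ends of the third principal component (7.53% of the variance).

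**Figure D1:**
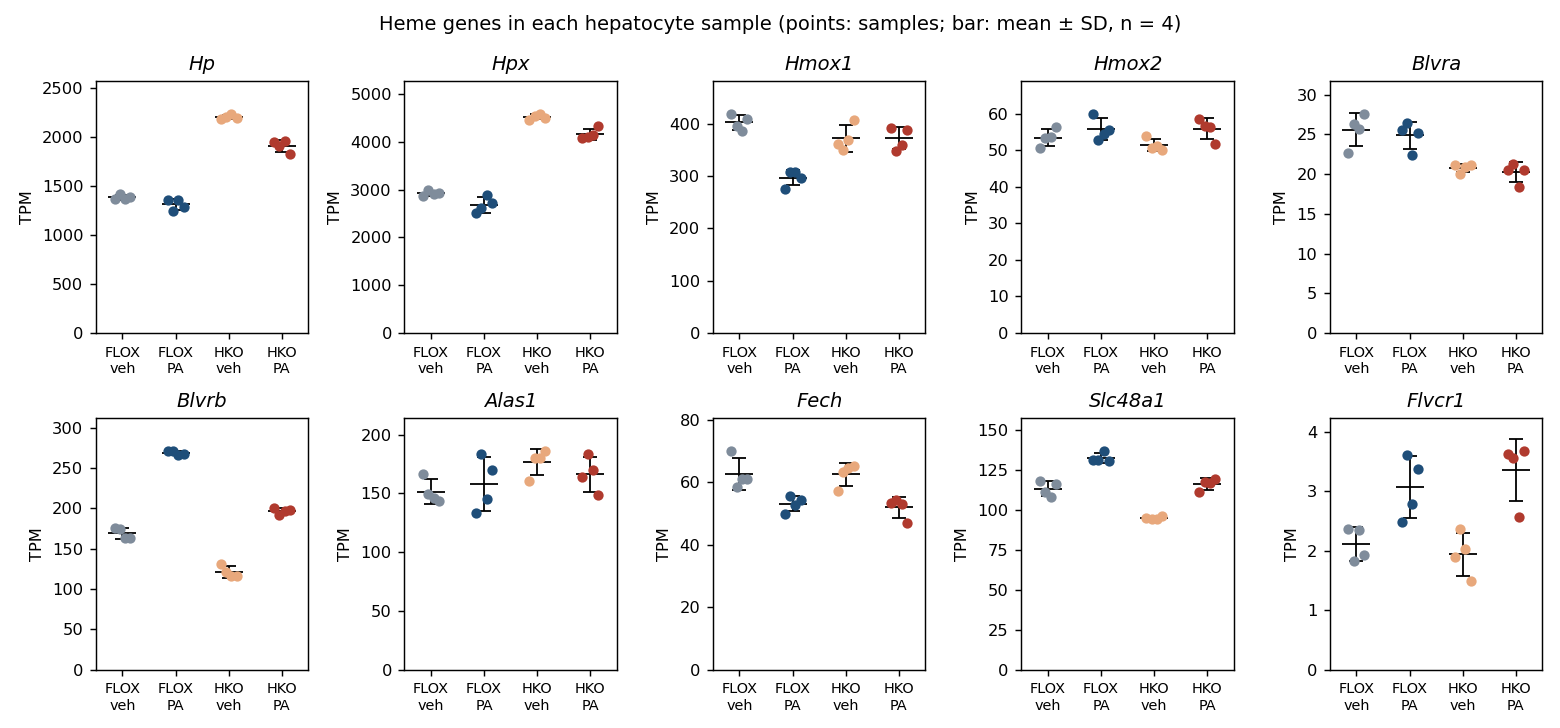
TPM (vertical axes, each from 0) of the 10 heme genes in the 4 groups on the horizontal axis (veh, vehicle; PA, palmitic acid). Points are samples and bars the mean ± SD of 4. Both HKO groups stand above both FLOX groups for Hp and Hpx, and below the FLOX group of the same treatment for Blvrb and Slc48a1.

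The plasma scavengers were the heme genes with the largest difference between genotypes. Hp stood at 1366, 1424, 1363 and 1384 TPM in FLOX cells with vehicle and at 1363, 1246, 1356 and 1284 TPM with palmitic acid. In HKO cells Hp stood at 2183, 2210, 2237 and 2195 TPM with vehicle and at 1948, 1906, 1959 and 1829 TPM with palmitic acid. Every HKO sample was above every FLOX sample under either treatment. With vehicle Hp was 59.4% higher in HKO cells (log2 difference 0.67 ± 0.032, limma adjusted p = 1.20e-09). The difference with palmitic acid was 45.6% (0.54 ± 0.032, limma adjusted p = 1.45e-08).

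Palmitic acid lowered Hp in HKO cells, from 2206 ± 23.1 to 1910 ± 59.0 TPM (mean ± SD, n = 4), a change of -0.21 ± 0.032 on the log2 scale (limma adjusted p = 7.34e-05). In FLOX cells the change, from 1384 ± 28.1 to 1312 ± 56.7 TPM, was -0.08 ± 0.032 and missed the threshold (limma adjusted p = 0.0694, 95% interval of the difference -0.14 to -0.01). The highest palmitic acid sample (1362.91 TPM) lay just below the lowest vehicle sample (1363.24 TPM). That FLOX difference passed the threshold without FLOX palmitic acid replicate 1 (-0.10, limma adjusted p = 0.0242) or replicate 3 (-0.09, 0.0475), and in 4 other settings given with the alternatives. The 2 responses differed by -0.13 ± 0.045, which did not pass (limma adjusted p = 0.423).

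Hpx was the most abundant of the 10 transcripts and ranked 46 among all genes by mean TPM in FLOX vehicle cells and 34 in HKO vehicle cells. Its samples stood at 2858, 2995, 2917 and 2922 TPM in FLOX cells with vehicle and at 2502, 2611, 2880 and 2725 TPM with palmitic acid. HKO cells had 4465, 4536, 4587 and 4503 TPM with vehicle and 4078, 4097, 4142 and 4332 TPM with palmitic acid. As for Hp, no HKO sample fell within the range of the FLOX samples. The HKO level was 54.7% above the FLOX level with vehicle (log2 difference 0.63 ± 0.036, limma adjusted p = 1.09e-08) and 55.4% above it with palmitic acid (0.64 ± 0.036, limma adjusted p = 1.17e-08).

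Hpx fell with palmitic acid in both genotypes, by 0.13 on the log2 scale in FLOX cells (SE 0.036, limma adjusted p = 0.0122) and by 0.12 in HKO cells (SE 0.036, limma adjusted p = 0.0135). In FLOX cells the groups overlapped, since the highest palmitic acid sample (2880 TPM) exceeded the lowest vehicle sample (2858 TPM). The FLOX fall missed the threshold when only the 2 FLOX groups were fitted (limma adjusted p = 0.0535), and the HKO fall did so with quantile normalization (-0.03, limma adjusted p = 0.739). The 2 responses differed by 0.01 ± 0.051 (limma adjusted p = 0.991, 95% interval -0.10 to 0.11).

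The ratio of the 2 scavenger transcripts varied little outside 2 libraries. Hpx over Hp was 2.09 to 2.14 in the FLOX vehicle samples and 2.04 to 2.05 in the HKO vehicle samples. With palmitic acid it was 2.10 to 2.12 in 3 FLOX samples and 1.84 in replicate 1, and 2.09 to 2.15 in 3 HKO samples and 2.37 in replicate 4. Together Hp and Hpx made up 0.438% ± 0.0080 of all TPM in FLOX vehicle cells, 0.408% ± 0.018 in FLOX palmitic acid cells, 0.684% ± 0.0080 in HKO vehicle cells and 0.621% ± 0.0071 in HKO palmitic acid cells (SD, n = 4). Across the 16 samples Hp and Hpx had r = 0.978, a description over samples that share the 4 groups.

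Ambp and Alb, whose products alpha-1-microglobulin and albumin also bind heme in plasma, also fell with palmitic acid and were higher in HKO cells, except that Alb differed by 0 in 2 comparisons with quantile normalization. Ambp averaged 1533 ± 23.4 TPM in vehicle-treated FLOX cells and 1895 ± 23.0 TPM in vehicle-treated HKO cells, a log2 difference of 0.31 ± 0.021 (limma adjusted p = 1.24e-07), and with palmitic acid the genotypes differed by 0.28 ± 0.021 (limma adjusted p = 3.06e-07). Palmitic acid lowered Ambp by 0.11 in FLOX cells and by 0.14 in HKO cells (limma adjusted p = 7.92e-04 and 1.04e-04). Alb was higher in HKO cells by 0.11 ± 0.029 with vehicle and 0.16 ± 0.029 with palmitic acid (limma adjusted p = 0.0200 and 0.00232), calls that were both lost with median-ratio scaling (adjusted p = 0.103 and 0.0602) and with no filter (adjusted p = 0.284 and 0.103). The vehicle call of Alb was also lost with no trend (adjusted p = 0.0912) and without FLOX vehicle replicate 2 (0.11, limma adjusted p = 0.0551) or HKO vehicle replicate 4 (0.10, limma adjusted p = 0.0609). It was lost too with quantile normalization. That method gives equal ranks equal values, so a difference of 0 there does not show equal levels. Of the 6 other scavenging and clearance genes, 3 were tested, 2 of them Ambp and Alb. The third, Lrp1, the receptor of hemopexin bound to heme, did not pass in any comparison. Cd163, the macrophage receptor of haptoglobin bound to hemoglobin, had at most 0.10 TPM in any sample, and the kidney receptors Cubn and Lrp2 at most 0.07 and 0.02 TPM.

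Markers of bile duct cells stood at different levels in the same groups. The 6 cholangiocyte markers summed to 193 to 203 TPM in FLOX vehicle, 207 to 251 in FLOX palmitic acid, 310 to 334 in HKO vehicle and 346 to 395 TPM in HKO palmitic acid cells. Most of that sum was Spp1 (143 to 346 TPM), while Epcam reached 0.80 TPM and Krt7 2.50 TPM at most. Their part in the genotype differences was not tested. In bulk samples, fewer cells of a type and less RNA per cell cannot be told apart.

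**Figure D2:**
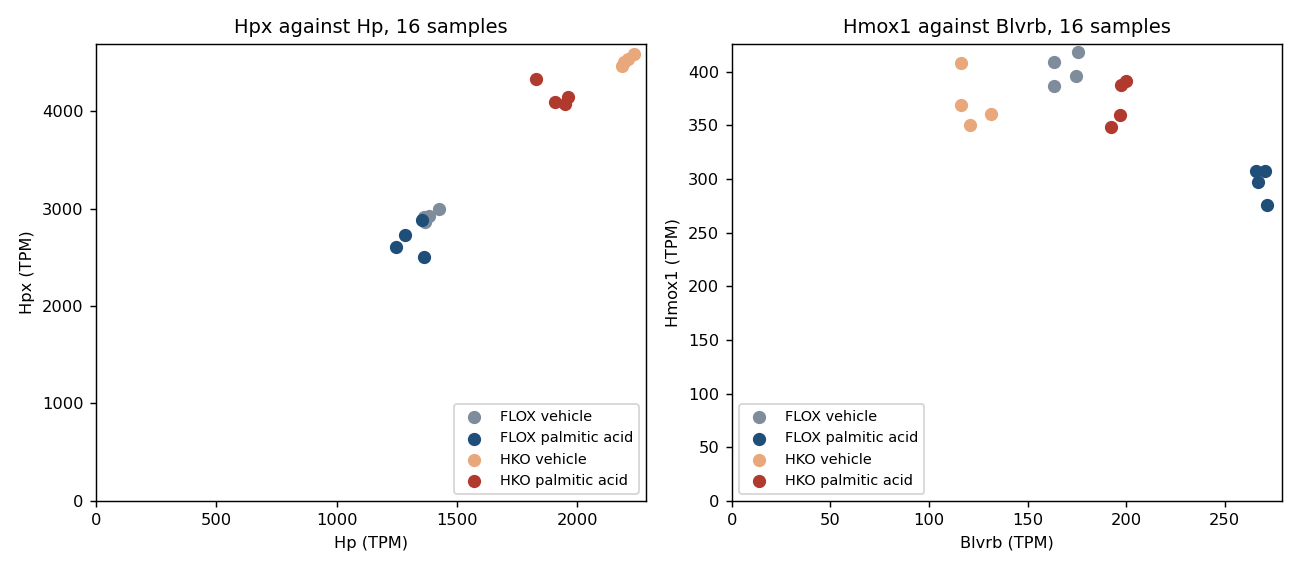
Hpx against Hp (left) and Hmox1 against Blvrb (right), both axes in TPM from 0, 1 point per sample and coloured by group. The 8 HKO samples stand apart from the 8 FLOX samples on both scavenger axes, and the FLOX palmitic acid samples stand alone at 276 to 308 TPM of Hmox1 and 266 to 272 TPM of Blvrb.

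Hmox1, the inducible heme oxygenase, was the only one of the 10 genes whose response to palmitic acid differed between genotypes by the test of that difference, a call that 13 of 26 alternatives lost. It stood at 419, 396, 387 and 410 TPM in FLOX cells with vehicle and at 276, 307, 308 and 297 TPM with palmitic acid. In HKO cells it stood at 361, 350, 369 and 408 TPM with vehicle and at 392, 349, 360 and 387 TPM with palmitic acid. The FLOX palmitic acid samples lay below all other 12 samples, and the 2 HKO groups covered nearly the same range.

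In FLOX cells Hmox1 fell with palmitic acid from 403 ± 14.2 to 297 ± 14.9 TPM, that is, it fell by 26.2% (log2 difference -0.44 ± 0.052, limma adjusted p = 9.07e-06). In HKO cells the means were 372 ± 25.1 and 372 ± 21.0 TPM, with a difference of 0.00 ± 0.052 and a 95% interval of -0.11 to 0.11 (limma adjusted p = 0.996). HKO cells had 25.2% more Hmox1 transcript than FLOX cells with palmitic acid (0.32 ± 0.052, limma adjusted p = 6.78e-04). With vehicle the difference was -0.12 ± 0.052 and missed the threshold (limma adjusted p = 0.178, 95% interval -0.23 to -0.01).

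The interaction, the HKO response minus the FLOX response, was 0.44 ± 0.073 for Hmox1 (95% interval 0.28 to 0.60, limma adjusted p = 0.0304). It held in 13 of 26 alternatives and was lost in the other 13, where the difference stayed between 0.39 and 0.45. It was lost without FLOX vehicle replicate 1, 2 or 4, FLOX palmitic acid replicate 4, HKO vehicle replicate 1, 2 or 3, or HKO palmitic acid replicate 1, each left out alone (limma adjusted p = 0.0565 to 0.0764). Without both FLOX libraries numbered 1 it was 0.39 (limma adjusted p = 0.0604). The FLOX fall and the HKO excess under palmitic acid held in all 27 alternatives.

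Hmox2, the constitutive heme oxygenase, was not called in any comparison. Its levels were 50.6, 53.3, 53.5 and 56.3 TPM in FLOX vehicle cells and 59.9, 52.8, 54.5 and 55.4 TPM in FLOX palmitic acid cells. HKO cells had 53.9, 50.7, 51.0 and 50.02 TPM with vehicle and 58.5, 56.5, 56.4 and 51.7 TPM with palmitic acid. All 4 groups overlapped. The palmitic acid difference of Hmox2 was 0.06 ± 0.049 in FLOX cells (95% interval -0.05 to 0.16, limma adjusted p = 0.386) and 0.11 ± 0.049 in HKO cells (0.01 to 0.22, limma adjusted p = 0.0710). The HKO difference passed without HKO palmitic acid replicate 4 (0.15, limma adjusted p = 0.0238) or FLOX palmitic acid replicate 1 (0.11, limma adjusted p = 0.0462). The genotypes differed by -0.05 with vehicle (95% interval -0.16 to 0.05) and by 0.00 with palmitic acid (-0.10 to 0.11). Hmox2 overlaps Cdip1 on the opposite strand (mean 17.9 TPM), and it is not stated whether the counting used strand. Hmox1 exceeded Hmox2 by 7.55 ± 0.49 times in FLOX vehicle cells, 5.36 ± 0.54 times in FLOX palmitic acid cells, 7.25 ± 0.65 times in HKO vehicle cells and 6.68 ± 0.58 times in HKO palmitic acid cells (SD, n = 4).

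Blvrb, a biliverdin reductase that also reduces flavins, rose with palmitic acid in both genotypes and was lower in HKO cells under both treatments. FLOX cells had 176, 174, 163 and 163 TPM with vehicle and 272, 271, 266 and 267 TPM with palmitic acid. HKO cells had 132, 121, 116 and 116 TPM with vehicle and 200.1, 192, 197 and 197 TPM with palmitic acid. None of the 4 groups overlapped another. The rise was 58.9% in FLOX cells (log2 difference 0.67 ± 0.039, limma adjusted p = 4.16e-09) and 62.4% in HKO cells (0.70 ± 0.039, limma adjusted p = 1.85e-09). On the log2(TPM + 1) scale these were the largest palmitic acid responses among the 10 genes, and they differed from each other by 0.03 ± 0.056 (limma adjusted p = 0.955, 95% interval -0.09 to 0.15). Against FLOX cells, Blvrb decreased by 28.4% in HKO cells with vehicle (-0.48 ± 0.039, limma adjusted p = 6.47e-07) and decreased by 26.8% with palmitic acid (-0.45 ± 0.039, limma adjusted p = 1.31e-06). All 4 calls held in all 27 alternatives.

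Blvra, the main biliverdin reductase of adult tissues, differed between genotypes but was not called with palmitic acid. It stood at 22.7, 26.3, 25.7 and 27.6 TPM in FLOX vehicle cells and at 21.1, 20.1, 21.0 and 21.1 TPM in HKO vehicle cells. With palmitic acid FLOX cells had 25.6, 26.4, 22.4 and 25.2 TPM and HKO cells 20.6, 21.3, 18.4 and 20.6 TPM. HKO samples lay below the FLOX samples of the same treatment in both cases. The differences of Blvra were -0.28 ± 0.065 with vehicle and -0.29 ± 0.065 with palmitic acid (limma adjusted p = 0.0101 and 0.00973). The first lay at the threshold with median-ratio scaling (-0.26, limma adjusted p = 0.0501). The palmitic acid difference of Blvra was -0.04 in each genotype, with 95% intervals of -0.17 to 0.10 in FLOX and -0.18 to 0.10 in HKO cells. Blvrb over Blvra was 6.67 ± 0.77 and 10.8 ± 0.72 in FLOX cells with vehicle and palmitic acid, and 5.82 ± 0.36 and 9.77 ± 0.69 in HKO cells (SD, n = 4).

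**Figure D3:**
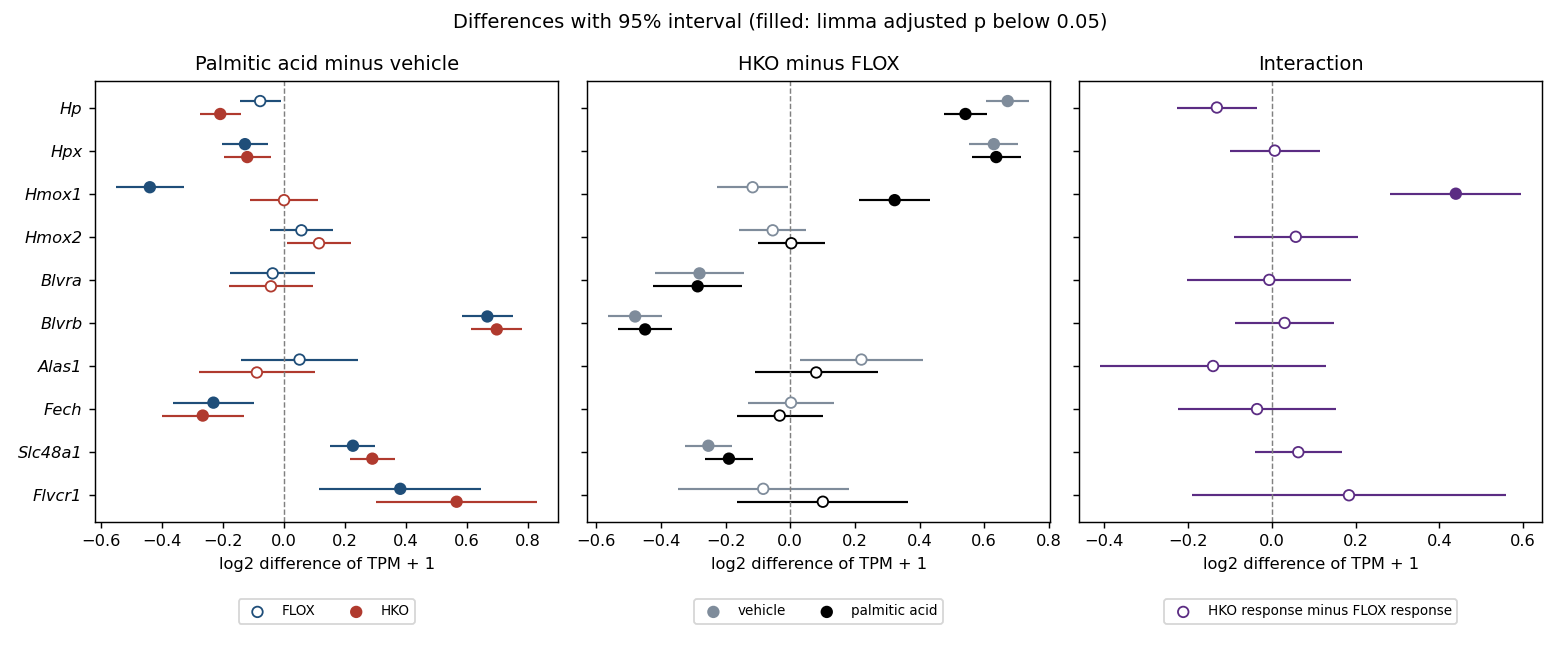
Log2 differences of TPM + 1 (horizontal axes) for the 10 heme genes with their 95% intervals: palmitic acid minus vehicle by genotype, HKO minus FLOX by treatment, and the interaction. Filled points have a limma adjusted p below 0.05. Hmox1 is the only filled point in the interaction (0.44, lost in 13 of 26 alternatives), and on this scale Blvrb has the largest palmitic acid responses (0.67 and 0.70).

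Among the other genes of heme breakdown and bilirubin disposal, Por, the reductase that hands electrons to heme oxygenases and cytochromes P450, moved as Blvrb did. It rose with palmitic acid from 113 ± 3.13 to 176 ± 11.1 TPM in FLOX cells and from 97.7 ± 3.13 to 151 ± 10.96 TPM in HKO cells (log2 differences 0.63 ± 0.052 and 0.62 ± 0.052, limma adjusted p = 2.07e-07 and 1.74e-07). HKO cells had less Por by 0.21 with vehicle and 0.22 with palmitic acid (limma adjusted p = 0.0146 and 0.0121), calls lost with quantile normalization (adjusted p = 0.0756) and with only the 2 groups fitted (0.0757), respectively. Ugt1a1, which conjugates bilirubin, was lower in HKO cells, at 42.9 ± 3.00 TPM in FLOX and 33.9 ± 1.26 TPM in HKO vehicle cells (-0.33 ± 0.058, limma adjusted p = 0.00148) and at 38.1 ± 2.82 and 26.9 ± 0.983 TPM after palmitic acid (-0.49 ± 0.058, limma adjusted p = 3.49e-05). Its palmitic acid fall in FLOX cells (-0.17, limma adjusted p = 0.0358) was lost in 9 of 27 alternatives and was -0.08 without both FLOX libraries numbered 1 (limma adjusted p = 0.216). Ugt1a1 shares exons with the other Ugt1a genes, between which the counting could split reads, so its values are uncertain. Por and Ugt1a1 were the only ones called of these 6 genes in each of the 4 comparisons. Of all genes, 34.4% and 42.5% were called with palmitic acid in FLOX and HKO cells. Between genotypes 11.7% were called with vehicle and 9.74% with palmitic acid. The transporters Abcc2, Abcc3, Slco1b2 and Slco1a1, which carry bilirubin or its conjugates and other organic anions, did not pass.

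Of the 2 synthesis genes, Alas1 was not called in any comparison. It stood at 167, 150.0, 146 and 144 TPM in FLOX vehicle cells, at 134, 183, 145 and 170 TPM in FLOX palmitic acid cells, at 160, 180, 180 and 186 TPM in HKO vehicle cells and at 164, 184, 170 and 148 TPM in HKO palmitic acid cells. Its widest spread was in FLOX palmitic acid cells, where the SD was 22.7 TPM around a mean of 158. The palmitic acid difference of Alas1 was 0.05 ± 0.090 in FLOX cells (95% interval -0.14 to 0.24, limma adjusted p = 0.692) and -0.09 ± 0.090 in HKO cells (-0.28 to 0.10, limma adjusted p = 0.455). With median-ratio scaling the first changed sign (-0.05) and the second passed the threshold (-0.21, limma adjusted p = 0.0303). Between genotypes with vehicle Alas1 differed by 0.22 ± 0.090 (95% interval 0.03 to 0.41, limma adjusted p = 0.136), and 4 of 27 alternatives took this past the threshold (0.22 to 0.27, limma adjusted p = 0.0283 to 0.0480), among them the one without both FLOX libraries numbered 1 (0.27, 0.0436). With palmitic acid the genotypes differed by 0.08 (95% interval -0.11 to 0.27).

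Fech, the ferrochelatase that inserts iron in the last step, fell with palmitic acid in both genotypes. FLOX cells had 70.1, 58.3, 60.9 and 60.8 TPM with vehicle and 49.8, 55.6, 52.7 and 54.1 TPM with palmitic acid. HKO cells had 57.2, 63.3, 64.4 and 65.3 TPM with vehicle and 53.2, 54.3, 53.0 and 47.0 TPM with palmitic acid. Every palmitic acid sample lay below every vehicle sample of either genotype. Fech fell by 15.1% in FLOX cells (-0.23 ± 0.063, limma adjusted p = 0.00996) and fell by 17.1% in HKO cells (-0.27 ± 0.063, limma adjusted p = 0.00306). Without both FLOX libraries numbered 1 the FLOX fall was -0.15 and missed the threshold (limma adjusted p = 0.0592). Between genotypes the difference was 0.00 with vehicle (95% interval -0.13 to 0.14) and -0.03 with palmitic acid (-0.17 to 0.10). Alas1 over Fech was 2.36 to 2.57 in FLOX vehicle samples, 2.69 to 3.30 in FLOX palmitic acid samples, 2.79 to 2.86 in HKO vehicle samples and 3.08 to 3.39 in HKO palmitic acid samples.

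Of the 12 other heme synthesis genes, all tested, 1 was higher and 1 lower with palmitic acid in FLOX cells and 2 were lower in HKO cells. Of all genes 23% were higher and 11.5% lower in FLOX cells, and 29.4% and 13.1% in HKO cells. Slc25a38, a mitochondrial glycine carrier, rose in FLOX cells from 8.88 ± 0.722 to 12.5 ± 1.87 TPM (0.44 ± 0.12, limma adjusted p = 0.00892). Its rise in HKO cells did not pass (0.23 ± 0.12, limma adjusted p = 0.126). Tmem14c, a mitochondrial porphyrin transporter, fell in FLOX and HKO cells by 0.19 and 0.24 on the log2 scale (limma adjusted p = 0.0106 and 0.00157). Clpx, a mitochondrial unfoldase that acts on ALAS proteins, fell in HKO cells by 0.17 (limma adjusted p = 0.0163). That call was lost without HKO palmitic acid replicate 4 (-0.14, limma adjusted p = 0.0551). In FLOX cells Clpx differed by -0.03 (limma adjusted p = 0.658), and the interaction called 0 of the 12 genes. Between genotypes 1 gene was lower with vehicle, Alad, an early enzyme of the pathway (-0.22, limma adjusted p = 0.0247), where 7.56% of all genes were lower. The Alad call was lost in 8 of 27 alternatives, without FLOX vehicle replicate 2, 3 or 4 or HKO vehicle replicate 2, 3 or 4 among them (limma adjusted p = 0.0561 to 0.0714). Alas2, the form of red cell precursors, stood at 21.96 ± 1.06 TPM in FLOX vehicle cells and was not called in any comparison. It overlaps Apex2 on the opposite strand.

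Both transporters rose with palmitic acid. Slc48a1, which moves heme out of endosomes and lysosomes into the cytosol, stood at 118, 111, 108 and 116 TPM in FLOX vehicle cells and at 131, 131, 137 and 131 TPM in FLOX palmitic acid cells. HKO cells had 94.7, 94.1, 94.2 and 96.1 TPM with vehicle and 111, 117, 117 and 119 TPM with palmitic acid. Its HKO vehicle samples were the lowest 4 of the 16 and the FLOX palmitic acid samples the highest 4. Slc48a1 rose by 17.1% in FLOX cells (0.23 ± 0.035, limma adjusted p = 1.15e-04) and by 22.5% in HKO cells (0.29 ± 0.035, limma adjusted p = 7.10e-06). It was lower in HKO cells by 0.25 with vehicle and by 0.19 with palmitic acid (SE 0.035 each, limma adjusted p = 1.45e-04 and 0.00196). All 4 calls held in all 27 alternatives. Hdac7 overlaps Slc48a1 on the opposite strand, at a mean of 4.14 TPM.

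Blvrb and Slc48a1 had the same order of the 4 groups, with r = 0.965 over the 16 samples, given as a description. The FLOX vehicle samples are subtracted in both the palmitic acid comparison in FLOX and the genotype comparison with vehicle. Those comparisons are therefore not independent, and spread in the shared samples moves both differences in the same direction.

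Flvcr1, described as a heme exporter of the plasma membrane, was the lowest of the 10 genes. It had 2.36, 1.82, 2.34 and 1.92 TPM in FLOX vehicle cells and 2.48, 3.61, 2.79 and 3.37 TPM in FLOX palmitic acid cells. HKO cells had 1.89, 2.36, 2.03 and 1.49 TPM with vehicle and 3.62, 3.55, 2.57 and 3.68 TPM with palmitic acid. The palmitic acid samples were all above the vehicle samples. Mean TPM of Flvcr1 rose 1.45-fold in FLOX and 1.73-fold in HKO cells, while on the log2(TPM + 1) scale, which understates changes at low levels, the differences were 0.38 ± 0.12 and 0.57 ± 0.12 (limma adjusted p = 0.0267 and 0.00180). The FLOX rise missed the threshold without FLOX vehicle replicate 2 (0.34, limma adjusted p = 0.0777) or 4 (0.35, 0.0689), or without FLOX palmitic acid replicate 2 (0.32, 0.0872) or 4 (0.34, 0.0750). Between genotypes Flvcr1 differed by -0.08 with vehicle (95% interval -0.35 to 0.18) and by 0.10 with palmitic acid (-0.16 to 0.37). A230020J21Rik overlaps it on the opposite strand at a mean of 1.41 TPM, against 2.62 TPM of Flvcr1.

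Of the 8 other genes of heme transport and intracellular carriage, 7 were tested. Flvcr2 had at most 0.52 TPM. With palmitic acid 1 was higher and 3 lower in FLOX cells, where 23% of all genes were higher and 11.5% lower. In HKO cells 0 were higher and 3 lower, where 29.4% and 13.1% of all genes were. Hebp1, a heme-binding protein of the cytosol, fell from 76.6 ± 2.32 to 56.9 ± 1.87 TPM in FLOX cells and from 77.9 ± 5.63 to 53.7 ± 3.21 TPM in HKO cells (log2 differences -0.42 ± 0.053 and -0.53 ± 0.053, limma adjusted p = 1.57e-05 and 1.11e-06). Abcg2, an efflux pump that carries porphyrins, fell by 0.39 and 0.52 (limma adjusted p = 2.91e-04 and 1.32e-05). Between genotypes Hebp2 alone was called, higher in HKO vehicle cells (0.42 ± 0.13, limma adjusted p = 0.0409), a call lost in 13 of 27 alternatives, 11 of them with 1 library left out. With vehicle 4.11% of all genes were higher in HKO cells.

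Counted together, 6 of the 10 heme genes were called in the FLOX palmitic acid comparison, 3 higher and 3 lower, against 34.4% of all genes tested in either direction, 23% higher and 11.5% lower. In HKO cells 6 were called, again 3 higher and 3 lower, against 42.5% of all genes, 29.4% higher and 13.1% lower. Between genotypes 5 were called with vehicle, 2 higher and 3 lower in HKO cells, against 11.7% of all genes, 4.11% higher and 7.56% lower. With palmitic acid 6 were called, 3 higher and 3 lower, against 9.74%, 4.24% higher and 5.5% lower. The interaction called 1, which was higher, against 0.194% of all genes, 0.152% higher and 0.0422% lower. The groups did not overlap for 6, 6, 5 and 6 of the 10 genes in the first 4 comparisons, where 29%, 41.1%, 17.8% and 13.9% of all genes did not. The median log2 difference of the 10 genes was 0.01, -0.02, -0.07 and 0.04 in these comparisons. That of all genes was 0.10, 0.11, -0.02 and -0.01. The 10 genes and the lists of related genes were chosen with earlier results of these data known. Their counts beside the shares of all genes are therefore a description and not a test of the set.

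The median of all genes under palmitic acid depended on the scaling. In HKO cells it was 0.11 as deposited and 0.00 with median-ratio scaling, and relative to the deposited median the HKO responses were -0.32 for Hp, -0.23 for Hpx, -0.11 for Hmox1, -0.38 for Fech, 0.59 for Blvrb, 0.18 for Slc48a1 and 0.45 for Flvcr1. In FLOX cells the same values were -0.17 for Hp, -0.22 for Hpx, -0.53 for Hmox1, -0.33 for Fech, 0.57 for Blvrb, 0.13 for Slc48a1 and 0.28 for Flvcr1. The share of all called genes that were higher in FLOX cells was 66.7% as deposited and 44.8% with median-ratio scaling, and in HKO cells 69.3% and 46.9%. Between genotypes it was 35.2% with vehicle and 43.5% with palmitic acid as deposited, and 53.9% and 53.3% with median-ratio scaling.

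Of 12 tested regulators of heme genes, 3 were higher and 1 lower with palmitic acid in FLOX cells, where 23% of all genes were higher and 11.5% lower, a share near the background. In HKO cells 7 were higher and 2 lower, where 29.4% and 13.1% of all genes were. The median log2 difference of the 12 was 0.19 in FLOX and 0.21 in HKO cells, against 0.10 and 0.11 for all genes. Nr1d1 (REV-ERBα), a heme-sensing repressor of the clock, rose in FLOX cells from 3.35 ± 0.242 to 5.63 ± 0.139 TPM (0.61 ± 0.095, limma adjusted p = 1.36e-04) and in HKO cells from 3.65 ± 0.559 to 8.24 ± 1.02 TPM (0.99 ± 0.095, limma adjusted p = 6.80e-07). Bach1, a heme-binding repressor of Hmox1, rose in HKO cells from 5.59 ± 0.700 to 8.18 ± 0.770 TPM (0.48 ± 0.15, limma adjusted p = 0.0164), a call lost without HKO vehicle replicate 4 (0.43, limma adjusted p = 0.0504). Hif1a, the hypoxia-inducible factor subunit, rose in FLOX cells by 0.47 ± 0.11 (limma adjusted p = 0.00484). Nr1i3, the nuclear receptor CAR, an inducer of Alas1, was lower by 0.46 and 0.47 in FLOX and HKO cells at levels near 1 TPM (limma adjusted p = 0.0127 and 0.00814). Between genotypes Maff, a small Maf protein that pairs with NRF2 or BACH1, was higher in HKO cells by 0.23 with vehicle and 0.36 with palmitic acid (limma adjusted p = 0.00429 and 1.08e-04). Nr1d1 was higher in HKO cells with palmitic acid by 0.47 ± 0.095 (limma adjusted p = 0.00436). None of the 12 passed the test of the interaction.

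Genes that carry the acute phase signal to Hp and Hpx were followed as a further list of 11, all tested. With palmitic acid 2 were lower in FLOX cells and 3 in HKO cells, where 11.5% and 13.1% of all genes were lower. In both genotypes 0 were higher, where 23% and 29.4% of all genes were higher. The median log2 difference of the 11 was -0.17 and -0.08. Cebpd, a C/EBP factor of the acute phase, fell from 8.11 ± 0.509 to 5.13 ± 0.365 TPM in FLOX cells and from 7.19 ± 0.742 to 5.40 ± 0.438 TPM in HKO cells (-0.57 ± 0.079 and -0.35 ± 0.079, limma adjusted p = 4.66e-05 and 0.00205). Tsc22d3, a glucocorticoid target, fell by 0.56 and 0.48 (limma adjusted p = 8.46e-06 and 2.65e-05). Between genotypes 1 gene was higher in HKO cells with vehicle and 3 with palmitic acid, where 4.11% and 4.24% of all genes were higher. Socs3, a feedback inhibitor of STAT3 signalling, was higher by 0.33 ± 0.096 with vehicle (limma adjusted p = 0.0359), a call lost in 10 of 26 alternatives, among them the one without both FLOX libraries numbered 1 (0.33, limma adjusted p = 0.0551), and by 0.46 ± 0.096 with palmitic acid (limma adjusted p = 0.00610). Cebpb, another C/EBP factor, stood at 29.3 ± 2.43 TPM in palmitic acid-treated FLOX cells and at 48.6 ± 11.7 TPM in treated HKO cells (0.68 ± 0.17, limma adjusted p = 0.0183), a call lost without FLOX palmitic acid replicate 3 or 4 or HKO palmitic acid replicate 1 (limma adjusted p = 0.0507 to 0.0620). Cebpa, a C/EBP factor of mature hepatocytes, was higher by 0.30 ± 0.078 with palmitic acid (limma adjusted p = 0.0233), a call lost without FLOX palmitic acid replicate 1 or 3 or HKO palmitic acid replicate 1 or 3 (limma adjusted p = 0.0526 to 0.0805). Stat3, Il6ra and Il6st, the factor and the receptor chains of interleukin-6, were not called in any comparison.

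**Figure D4:**
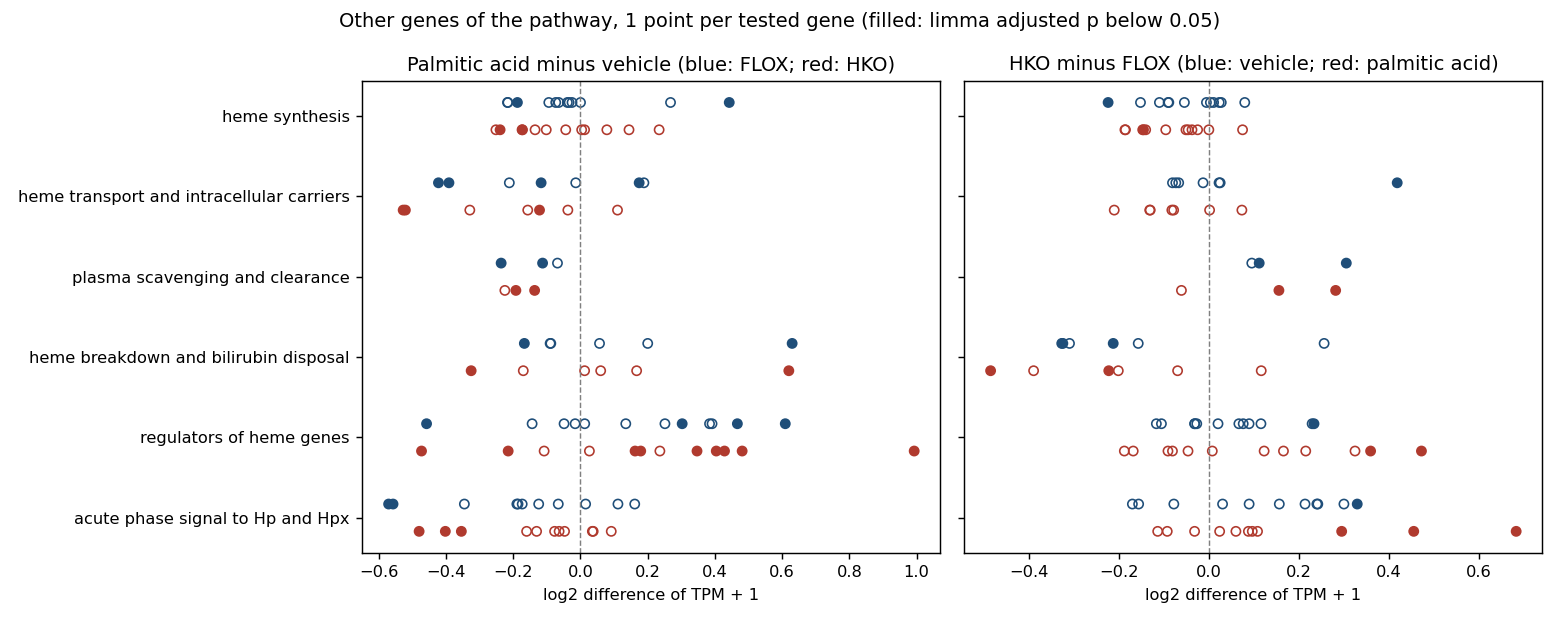
Log2 differences of TPM + 1 (horizontal axes) for the tested genes of the 6 lists other than the 10 heme genes, 1 point per gene. Filled points have a limma adjusted p below 0.05. With palmitic acid the filled points of the acute phase signal (2 of 11 genes in FLOX, 3 in HKO) lie below 0. Of all genes 11.5% in FLOX and 13.1% in HKO cells were lower. Between genotypes the filled points of plasma scavenging (Ambp and Alb, 2 of 3 genes) lie above 0. Of all genes 4.11% with vehicle and 4.24% with palmitic acid were higher in HKO cells. The Alb calls were lost in some alternatives.

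Over all 6 lists 51 of 56 other genes were tested. With palmitic acid 6 were higher and 10 lower in FLOX cells, and 8 were higher and 13 lower in HKO cells, in total close to the 34.4% and 42.5% of all genes called there. The median log2 difference of the 51 genes was -0.06 in both, against 0.10 and 0.11 for all genes. In HKO against FLOX cells 5 were higher and 3 lower with vehicle, and 7 higher and 3 lower with palmitic acid, where 11.7% and 9.74% of all genes were called. The medians were 0.01 and -0.05, against -0.02 and -0.01 for all genes. The interaction called 0 of the 51.

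The genes most like 4 of the heme genes over the 16 samples were found by Pearson's r of log2(TPM + 1) among the other 11857 genes, given as a description of samples that share groups. For Hp they were Tpi1, a glycolytic enzyme (r = 0.980), Hpx (0.978) and Mup1, a major urinary protein (0.977). For Hpx they were Mup14 (0.983), Mup1 (0.982) and Mup7 (0.979), near-identical genes between which reads could be split, so that which of them ranks first is uncertain. Tpi1 averaged 594, 540, 825 and 735 TPM in FLOX vehicle, FLOX palmitic acid, HKO vehicle and HKO palmitic acid cells, in the order of Hp itself. For Hmox1 the values were lower: Ciart, a circadian repressor (0.880), Tars, a threonyl-tRNA synthetase (0.852), and the pseudogene Usf2-ps1 (0.838), whose reads may belong to Usf2. For Alas1 they were Mxi1 (0.884), Arhgef7 (0.866) and Foxo3 (0.860).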

How the data were processed

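Stranded libraries of total RNA were sequenced for 16 samples of mouse hepatocytes. The authors deposited TPM for 55416 mouse Ensembl IDs, rounded to 2 decimals; the submitters' processing notes list RSEM 1.3.3. Those notes name a human genome build, which cannot be that of mouse IDs, so no coordinates of the authors are used; the aligner and annotation are not given in these sources. No read counts or depths were used, so depth is unknown. Symbols came from a gene-name table, which matched 52083 IDs (94.0%).

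The 11858 genes with at least 1 TPM in at least 4 samples entered limma on the log2(TPM + 1) scale, version 3.58.1 (R 4.3.3), fitting the 4 group means at once with its intensity trend. There were 5 contrasts: the palmitic acid response of FLOX and of HKO cells, the genotype difference with vehicle and with palmitic acid, and the interaction. Two-sided p-values were corrected by the Benjamini-Hochberg method across the 11858 genes, and 0.05 was the threshold. The code was tested on simulated data. Intervals are limma's 95% intervals, not adjusted for multiple tests. Promoters were searched with Python 3.11.15, and sequences of the other 4 genes were not used here.

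The 10 genes, the 6 pathway lists and 7 marker lists were chosen with earlier results of these data known. Besides the 10 genes and Smpd3, the text names the up to 3 genes per list and comparison with the largest difference past the threshold, and the 3 genes most like Hp, Hpx, Hmox1 and Alas1; some that the rule picks are left out, and 1 result is not reported here. Genes named as not called, and Tpi1's levels, were chosen after their values were seen. Alternatives were median-ratio scaling, quantile normalization, sample quality weights, no filter or one of 5 TPM, a pseudocount of 0.1, no trend, a fit of only the 2 groups, a block for the replicate number, leaving out both FLOX libraries numbered 1, leaving out Hp and Hpx and rescaling, and leaving out each sample.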

Additional observations from a re-analysis of the deposited data

Results flagged for a closer look

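In 4 of the 40 combinations of a heme gene and a group, 1 sample lay far from the other 3 by Dixon's test, which chance alone does in about 1 of 20. Blvra in HKO vehicle cells was 20.06 TPM in replicate 2 and 20.95 to 21.12 TPM in the others. Fech in HKO palmitic acid cells was 47.03 TPM in replicate 4 and 53.04 to 54.26 TPM in the others. Slc48a1 in FLOX palmitic acid cells was 137.15 TPM in replicate 3 and 130.92 to 131.14 TPM in the others. Flvcr1 in HKO palmitic acid cells was 2.57 TPM in replicate 3 and 3.55 to 3.68 TPM in the others. The palmitic acid calls of Fech and Flvcr1 in HKO cells held in every alternative run, those that left out these samples included.

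The response of Hmox1 to palmitic acid differed between the genotypes by the interaction test, by 0.439 on the log2 scale (limma adjusted p = 0.0304, over the alternatives 0.0124 to 0.165).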

How the results depend on the processing

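Of 638 values of the calls on the 10 genes under the alternatives, 615 kept their direction and their side of the threshold, 23 kept only their direction and 0 reversed; the cause of the losses was not tested. Counts with the filter of 5 TPM, which drops Flvcr1, and without Hp and Hpx could not be set beside the others, and the fit of only the 2 groups gives no interaction. No filter took the Hmox1 interaction to an adjusted p of 0.0515 and that of Flvcr1 in FLOX to 0.0679, median-ratio scaling took the Hmox1 interaction to 0.42 (0.0841) and no trend to 0.0879. Hp in FLOX passed with median-ratio scaling (-0.18, 0.0177), quantile normalization (-0.12, 0.0319), weights (-0.10, 0.0101) and without both FLOX libraries numbered 1 (-0.10, 0.0253). Hmox2 in HKO passed with weights (0.13, 0.0185) and without both FLOX libraries (0.0360). The interaction called 0 of the 10 genes with no filter, median-ratio scaling, no trend, the replicate block and without both FLOX libraries numbered 1, and 0 to 1 with each sample left out. Over all genes it called 23, against 9 with median-ratio scaling, 5 with no trend, 3 with the block, 40 with weights and 8 to 24 with each sample left out. HKO against FLOX with palmitic acid called 1155 genes, and 669 with only the 2 groups.

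Signs changed for differences that did not pass. Median-ratio scaling gave -0.0440 for Hmox2 and -0.0513 for Alas1 in FLOX, -0.00658 for Hmox2 and -0.123 for Hmox1 in HKO, and -0.0131 for the interaction of Hpx. Quantile normalization gave -0.00262 for the interaction of Blvrb. Weights gave -8.34e-04 for Hmox1 in HKO and interactions of 0.0298 for Blvra and -0.0187 for Hpx. Without both FLOX libraries Hmox2 in FLOX was -0.00297, with interactions of 0.0621 for Blvra and -0.0142 for Hpx, and without Hp and Hpx Hmox1 in HKO was -3.51e-04. With each sample left out, palmitic acid differences ran from -0.0236 to 0.127 for Alas1 and -0.0905 to 0.0112 for Blvra in FLOX and from -0.0272 to 0.0455 for Hmox1 in HKO. Genotype differences ran from -0.0301 to 0.0571 with vehicle and -0.0620 to 0.0127 with palmitic acid for Fech, and from -0.0212 to 0.0383 with palmitic acid for Hmox2. Interactions ran from -0.0536 to 0.0481 for Blvra, -0.0899 to 0.0107 for Fech and -0.0249 to 0.0426 for Hpx.

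Deviations from the group means of same-numbered samples correlated at -0.15 to 0.036 between FLOX vehicle and palmitic acid and at -0.026 to 0.086 in HKO. Differently numbered samples were not compared, so these values cannot tell whether same-numbered samples shared a mouse. With the replicate block the Hmox1 interaction stayed at 0.44 (limma adjusted p = 0.165) and Flvcr1 in FLOX at 0.38 (0.0854); it called 5, 6, 5 and 6 of the 10 genes in the other comparisons. Of 47 calls on other named genes, 30 held in every alternative. With quantile normalization, which gives equal ranks equal values, Alb differed by 0 in HKO with palmitic acid and between genotypes with vehicle. Ugt1a1 in FLOX was lost in 9 of 27 alternatives and Slc46a1 in 5. Depth is unknown, so its limits cannot be given.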
